A study of Oreochromis niloticus with 12 samples.

Results

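The mitochondrial ribosomal protein genes of Nile tilapia (Oreochromis niloticus) were followed through RNA sequencing of testis and ovary. The genes were taken by a rule on their names, and the group was chosen with earlier results of these data known. Every gene whose symbol starts with mrpl or mrps followed by a digit was taken, which gave 68 of the 22283 genes in the deposited table. Of these, 41 carry a large subunit name (mrpl) and 27 a small subunit name (mrps), and each symbol occurred once. The 12 libraries came in 4 groups of 3, that is, testis and ovary, each labelled control or SF1-suppressed. The receptor SF1, encoded by nr5a1, switches on steroid-producing enzymes of the gonad. The suppressed fish, per the labels, came from eggs into which antisense RNA fragments against SF1 had been carried by a transfection reagent before fertilisation, and the control eggs had received the same reagent with ultrapure water or with a blank plasmid. The labels do not say which of those controls, or which antisense fragment, each library came from. The larvae of all groups spent 30 days in a small tank system, the culture lasted 150 days, and the control tissues were labelled as sexually mature. The labels give no strain, and they do not say whether a library came from 1 fish or from pooled gonads, so the p-values below cover only the spread among these libraries, and that spread may be technical.

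Mitochondria carry their own ribosomes, which translate the few proteins encoded by mitochondrial DNA, all of them parts of the respiratory chain and the ATP synthase. Their proteins are encoded in the nucleus, made in the cytosol and imported, and must meet the ribosomal RNA made inside the organelle. Many descend from bacterial ribosomal proteins, and others were added during the evolution of the organelle. Fish oocytes store large numbers of mitochondria for the embryo, whereas spermatids keep few of them around the sperm midpiece.

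The targeted gene was checked as a test of the labels. RNA of nr5a1 stood at 9.26, 11.8 and 17.9 FPKM (fragments counted on a gene, corrected for transcript length and sequencing depth) in control testis and at 23.7, 24.3 and 6.34 in the testis libraries labelled SF1-suppressed. It was thus higher than every control in 2 of these 3 libraries, and the change was not past the test (log2 0.58, adjusted p = 0.415 by the quasi-likelihood test of edgeR). In ovary the change was 0.04 (adjusted p = 0.935). Directions given below are therefore those of the labels and not of SF1 RNA. Libraries held from 36.8 M to 60.5 M counts. The tissue labels matched their markers: the summed FPKM of 5 testis genes was 816 to 1770 in testis and 47.1 to 53.3 in ovary, and that of 6 ovary genes was 48.8 to 62.3 in testis and 1430 to 1810 in ovary, with 0 of these 11 genes at 0. Single markers differed from their sums, since the ovary gene figla was higher in control testis (41.3 against 21.1 FPKM) and the testis gene cyp11c1 was near equal (15.1 against 14.8). The testis library labelled SF1-suppressed replicate 3 differed from the rest of its group. Its summed level of 3 stroma genes was 418 FPKM against 2130 and 1640 in replicates 1 and 2, and 505, 631 and 824 in control testis. Its sum of the 5 testis genes was 816 against 1770 and 1610, and 891 to 942 in controls. In both sums replicate 3 lay nearer to the controls than replicates 1 and 2 did. Its summed level of 4 spermatid genes was 449 against 293 and 333, and 389, 356 and 312 in controls. Among stroma genes tagln had a mean of 1070 ± 787 FPKM in suppressed-labelled testis against 525 ± 142 in controls. For dcn the means were 272 ± 61 and 105 ± 13.2. Among testis genes gsdf had 951 ± 449 against 446 ± 16.2 and sox9a 10.4 ± 1.53 against 2.61 ± 0.136 (SD, n = 3). The mean of amh was lower, at 113 ± 68.1 against 187 ± 24.6. The place of replicate 3 is given for the sums and not for each gene.

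All 68 genes were expressed in all 12 libraries, and all 68 passed the filter on low values in every comparison (3 or more libraries of the comparison with an FPKM of 1 or higher). Their summed level was 2965 ± 247 FPKM in control testis and 4939 ± 210 in control ovary (SD, n = 3), and it was 3301 ± 510 and 4962 ± 220 in the suppressed-labelled testis and ovary. Every ovary library lay above every testis library, since the libraries ran from 2745 to 3880 FPKM in testis and from 4702 to 5116 in ovary. The testis to ovary ratio of the sums was 0.600 among controls and 0.665 among suppressed-labelled libraries. Each of these ratios had an exact two-sided permutation p of 0.1, which is the smallest that 3 against 3 libraries can give. The genes made up 0.593% ± 0.0347 of all FPKM in control testis and 0.969% ± 0.0356 in control ovary (SD, n = 3). The sums did not differ by label beyond their spread, with an exact permutation p of 0.4 in testis and of 0.7 in ovary.

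The genes were far from equal in level. In control testis the highest mean was 34.5 times the lowest, and in control ovary it was 257 times the lowest. The median gene had a level above those of 84.3 to 88.5% of all genes in the testis libraries and 91.7 to 93.4% in the ovary libraries. In control testis the highest levels were those of mrps36 (193 ± 20.9 FPKM), mrps24 (156 ± 11.8), mrpl57 (147 ± 8.73) and mrps18c (116 ± 24.5; all SD, n = 3). In mammals the mrps36 product is a component of the 2-oxoglutarate dehydrogenase complex, although its gene bears a ribosomal name. Control ovary had another order, led by mrps2 (298 ± 10.2 FPKM), mrpl32 (234 ± 11.8), mrps25 (173 ± 2.9) and mrps16 (150 ± 14.1). Of neighbours in these orders, the SD ranges of mrps24 and mrpl57 and those of mrpl57 and mrps18c overlapped in testis. The lowest in both tissues included mrpl20, at 5.59 ± 0.911 FPKM in testis and 1.16 ± 0.231 in ovary, and mrpl4, at 5.62 ± 0.57 and 7.93 ± 0.268. The smallest count of any of the 68 genes in any library was 25, that of mrpl20 in a control ovary, so counting error weighs on that gene most. Small subunit names had the higher median FPKM in every library (33 to 43.5 against 26.7 to 37.2 in testis, and 72.5 to 84.5 against 49.1 to 64.9 in ovary).

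**Figure D1:**
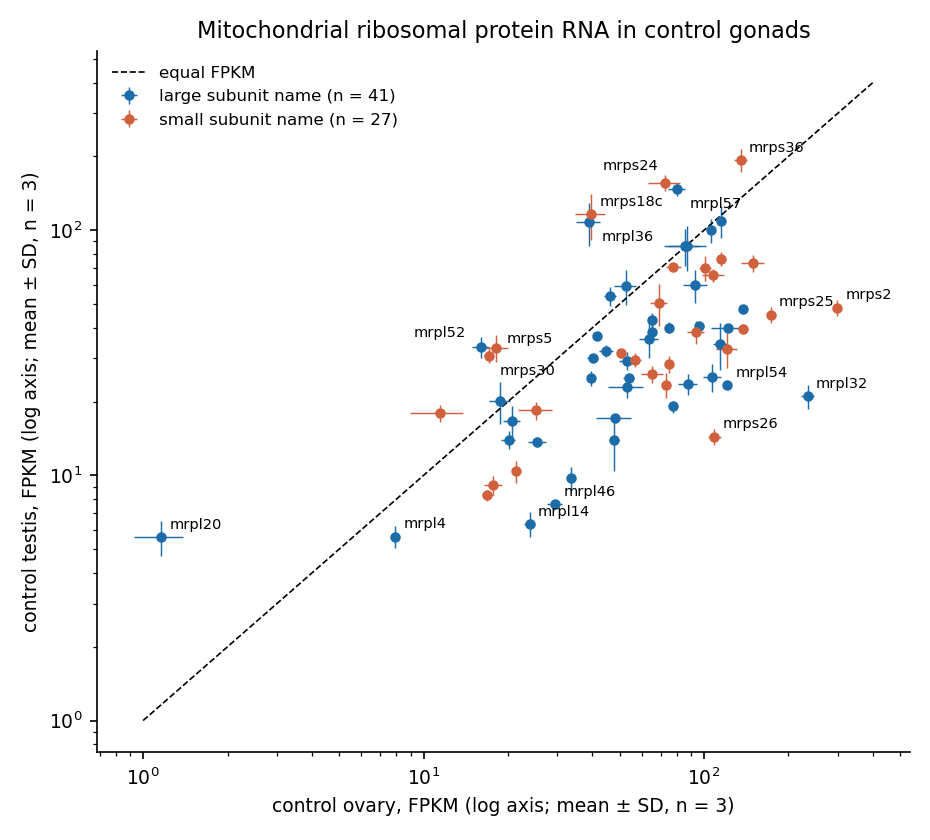
Mean FPKM of each of the 68 mitochondrial ribosomal protein genes in control ovary (horizontal, log axis) and control testis (vertical, log axis), with bars for the SD of 3 libraries, coloured by subunit name. Most points lie below the dashed line of equal level, and mrpl32, mrps26 and mrps2 lie farthest below it, whereas mrpl20, mrps18c and mrpl36 lie farthest above it.

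Control testis and control ovary differed in most of these genes, and mostly one way. By edgeR's quasi-likelihood test with Benjamini-Hochberg adjustment over all genes, 52 of the 68 were lower in testis, 9 were higher and 7 did not pass. Of all 14719 genes tested, 42.3% were lower and 44.1% higher in testis, so the background had no such tilt. The median log2 difference (testis minus ovary) was -0.97 for the 68 genes and 0.05 for all genes. Scaling by total count in place of TMM moved both medians up together, to -0.78 and 0.24, with 49 genes lower and 11 higher. With that scaling 38.7% of all genes were lower and 47.4% higher. In whole gonads, fewer cells of a type and less RNA per cell cannot be told apart, and the tissues differ in their cells, as the marker sums above show. The part of cell makeup in these differences was not tested.

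The largest difference was that of mrpl32 (ENSONIG00000007276; scaffold GL831158.1, bases 4045462 to 4047973, minus strand), a large subunit protein that in mouse and yeast is matured by the m-AAA protease of the inner membrane before it is built in. Its levels were 22.3, 18.4 and 22.6 FPKM in control testis and 239, 243 and 221 in control ovary. The groups lay an order of magnitude apart with no overlap (12.6-fold lower in testis; log2 -3.65, SE 0.10, adjusted p = 2.18e-09). The small subunit gene mrps26, which has no bacterial counterpart, followed at 13.9, 15.6 and 13.5 FPKM in testis against 106, 106 and 116 in ovary (log2 -3.10, SE 0.10, adjusted p = 5.4e-09). The third was mrps2, of the bacterial S2 family, at 49.5, 51.1 and 44.3 FPKM against 299, 307 and 287 (log2 -2.80, SE 0.09, adjusted p = 3.37e-09). Each was lower in every testis library than in any ovary library.

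The next in size were mrpl54 (log2 -2.56), mrpl35 (-2.26), mrpl22 (-2.20), mrpl46 (-2.12) and mrps25 (-2.11), with SE from 0.08 to 0.12. In bacteria the counterpart of mrpl22 lines the tunnel through which the new chain leaves the ribosome. The mrpl54 gene lies across fam32a and mrpl22 across gemin5, each on the opposite strand, and with no strand setting given in the sources used here their reads cannot be fully separated from those of their neighbours. Genes of the stalk that recruits translation factors were lower too, with mrpl10 at 38.3 ± 3.29 FPKM in testis and 65 ± 0.943 in ovary and mrpl11 at 36.1 ± 5.93 and 63.5 ± 5.02 (SD, n = 3; log2 -0.94 and -0.99, adjusted p = 6.91e-06 and 0.000162). The gene mrpl44, whose protein has a fold related to ribonuclease III, was 47.6 ± 2.02 in testis and 138 ± 4.93 in ovary (log2 -1.71, adjusted p = 3.61e-08).

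A minority went the other way. The gene mrpl20, whose bacterial counterpart binds early during large subunit assembly, stood at 4.63, 5.68 and 6.44 FPKM in control testis and at 1.05, 1.00 and 1.42 in control ovary (log2 2.05, SE 0.35, adjusted p = 0.000403). Its testis libraries were all above its ovary libraries, at low levels in both tissues. For mrps18c, related to bacterial S18, the testis libraries held 142, 113 and 93.6 FPKM and the ovary libraries 34.8, 44.7 and 39.1 (log2 1.38, SE 0.17, adjusted p = 4.67e-05). For mrpl36, among the smallest proteins of the large subunit, they held 129, 110 and 85.5 against 35.7, 42.9 and 37.8 (log2 1.30, SE 0.17, adjusted p = 5.64e-05). Neither pair of groups overlapped. The other genes with an S18 name were lower in testis, at log2 -1.21 for mrps18b (adjusted p = 5.27e-07; its gene overlaps abcf1) and -0.31 for mrps18a (adjusted p = 0.00457; its gene overlaps rsph9). The mrps18a call was lost in 6 of 14 alternatives, among them those without testis control replicate 1, 2 or 3 (adjusted p up to 0.776).

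The other 6 that were higher in testis were mrps24 (log2 0.92), mrpl52 (0.88), mrpl57 (0.70), mrps5 (0.69), mrps30 (0.67) and mrps36 (0.34). In the mammalian ribosome the mrps30 product sits in the large subunit despite its name. The mrps36 call was lost in 4 of its 14 alternative fits (adjusted p up to 0.133). The 7 that did not pass were mrpl2, mrpl30, mrpl41, mrpl45, mrpl49, mrpl53 and mrps28, with log2 differences from -0.25 to 0.48. Of these mrpl45, which in mammals anchors the ribosome at the inner membrane, was at 53.8 ± 4.62 FPKM in testis and 46.2 ± 2.37 in ovary (log2 0.04, adjusted p = 0.695), and it passed as higher in testis in 6 of 14 alternatives (adjusted p down to 0.000661). For mrps28 (log2 0.48, adjusted p = 0.0637) the same held in 9 of 14 (adjusted p down to 0.00213). In fits without 1 library between 45 and 53 genes were lower, where 40.7 to 42.6% of all genes were. Without testis control replicate 1, 2 or 3 the median log2 difference was -0.73, -0.67 or -0.55, and the calls of mrps23 (adjusted p up to 0.16), mrpl16 (up to 0.723), mrpl23 (up to 0.886) and mrps18a were lost in each of these fits. The calls of mrps6 (adjusted p up to 0.226) and mrpl34 (up to 0.503) were lost without replicate 2 or 3, and that of mrps21 without replicate 3 (0.0567). Over all alternatives the mrpl16 call was lost in 8 of 14. In each fit without 1 library, the filter and the scaling were set anew on the libraries left. A gene with an FPKM of 1 or higher only in the group short of a library was then no longer tested. Without testis control replicate 1, 2 or 3, 10468, 10193 or 10505 genes passed in all, against 12709 in the main fit. Without ovary control replicate 1, 2 or 3 the median log2 difference was -1.04, -1.02 or -1.10. The part of the missing library and that of the changed gene set and scaling were not tested apart in these fits.

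The same comparison could be made in the suppressed-labelled libraries, which share no library with the controls. There 46 of the 68 were lower in testis, 8 were higher and 14 did not pass, where 39.9% of 14189 genes tested were lower and 41.3% higher. The median log2 difference was -0.84 against 0.03 for all genes. All 46 of these genes were among the 52 that were lower in control testis (100% of the one list and 88.5% of the other), and 7 were higher in both (87.5% and 77.8%). Among all 13793 genes tested in both comparisons the lower lists shared 93.6% and 85.9% and the higher lists 91.9% and 88.2%, and 137 genes had opposite calls, of which 0 were mitochondrial ribosomal protein genes.

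In the suppressed-labelled pair the lead passed to mrps2, at 45.2, 45.0 and 46.7 FPKM in testis and 329, 305 and 330 in ovary (log2 -2.94, SE 0.10, adjusted p = 2.28e-07). Next came mrps26 (log2 -2.78), mrps23 (-2.25), mrpl54 (-2.23), mrpl21 (-2.22), mrpl14 (-2.13), mrpl32 (-2.13) and mrps35 (-2.06). The highest in testis were mrps18c (1.83), mrps24 (1.34), mrpl52 (1.22) and mrpl41 (0.89), followed by mrpl36, mrps30, mrpl57 and mrps36 (0.76 to 0.53). Of the 9 higher in control testis, mrpl20 and mrps5 did not pass here (log2 0.93 and 0.09), although mrpl20 passed in 7 of 14 alternatives (adjusted p down to 0.00334). The mrpl36 call was lost in 4 of 14 and the mrps36 call in 5 (adjusted p up to 0.12 and 0.171), and both were lost without ovary suppressed replicate 1, 2 or 3. The gene mrpl41 passed here (adjusted p = 0.00643) and not among controls (0.999). The difference between these pairs of groups is the interaction tested further below, where mrpl41 was not past the test (adjusted p = 0.0694). Without suppressed testis replicate 1, 2 or 3 the median log2 difference was -0.44, -0.46 or -0.72 and 35, 34 or 47 genes were lower. Of all genes 38.5%, 37.4% or 42.4% were lower in these fits. Without suppressed ovary replicate 1, 2 or 3 the median was -0.90, -0.99 or -0.93. As among controls, leaving out a library also changed the genes tested and the scaling, and these parts were not tested apart.

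**Figure D2:**
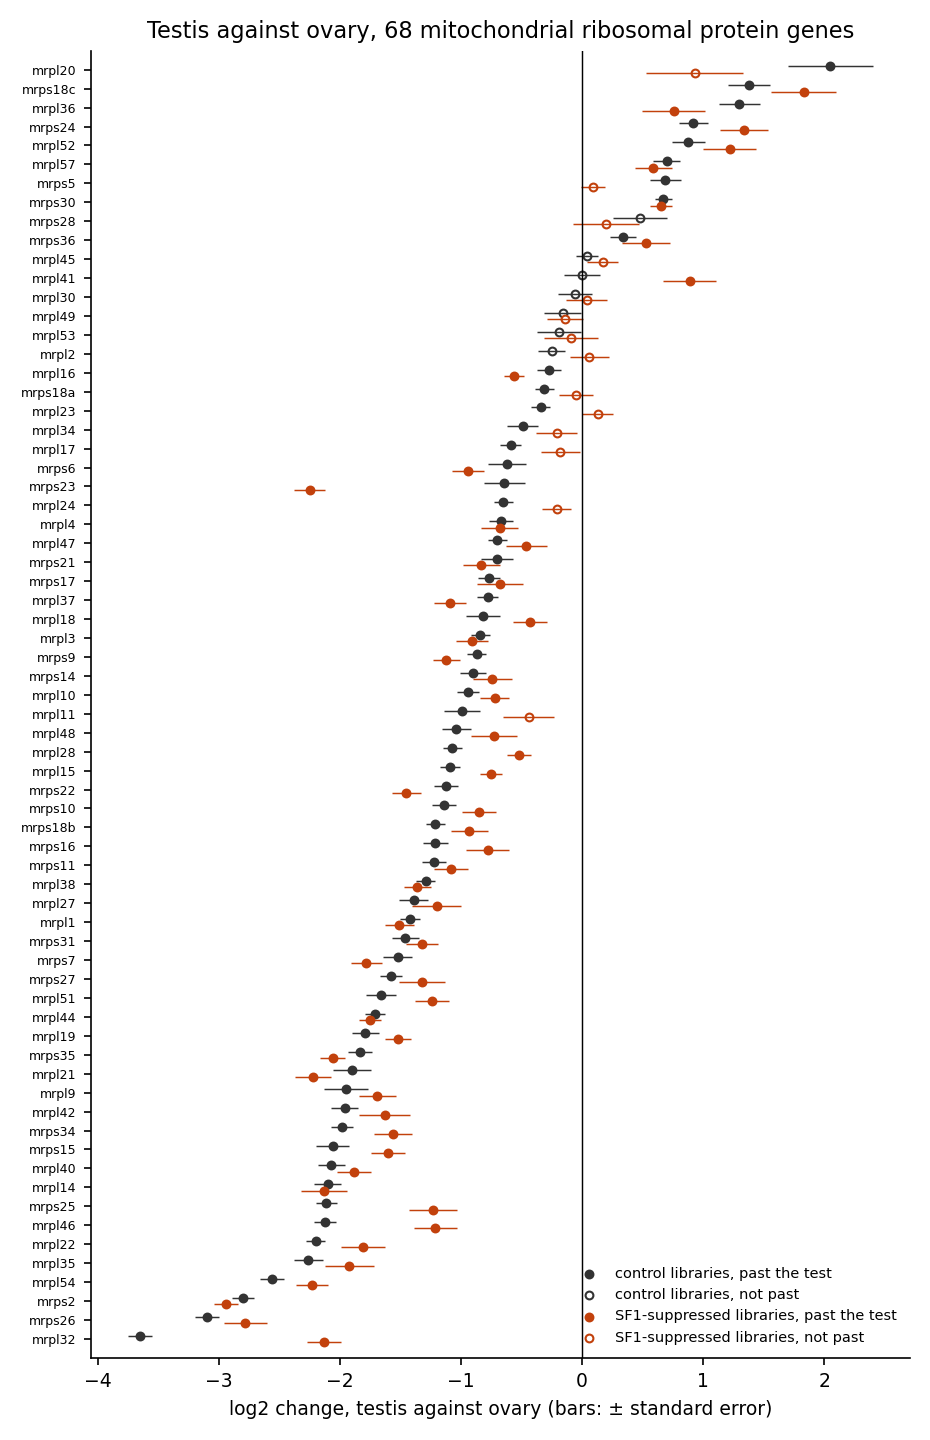
Log2 difference between testis and ovary (horizontal) for each of the 68 genes (vertical, ordered by the control value), with bars for the standard error, in control libraries (black) and in libraries labelled SF1-suppressed (orange). Filled points have an adjusted p under 0.05. Most points lie left of 0 in both colours, and the colours lie far apart for mrpl32 and mrps23.

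Lower levels in testis were spread over both subunits and both evolutionary classes. Of all genes tested between the controls 42.3% were lower in testis and 44.1% higher. Of the large subunit names 31 of 41 were lower in control testis (median log2 -0.94), and of the small subunit names 21 of 27 (median -1.12). Genes listed with a bacterial counterpart had 33 of 41 lower (median -0.87), and the others 19 of 27 (median -1.21). Of the S18 names the list counted mrps18c among the first and mrps18a and mrps18b among the others, although all belong to the family of bacterial S18. The genes were also scattered over the genome, on 54 scaffolds, of which 11 held more than 1 of them. The sole pair of neighbours among the 68 that stood head to head was mrpl46 and mrps11, with 174 bases between their starts in the table and, in RefSeq's assembly UMD_NMBU, 462. Both were lower in control testis (log2 -2.12 and -1.22). A total of 13 genes overlapped an annotated gene on the other strand. They were mrpl4, mrpl9, mrpl14, mrpl22, mrpl30, mrpl47, mrpl54, mrps7, mrps18a, mrps18b, mrps30, mrps35 and mrps36. The limit on separating reads given above for mrpl54 and mrpl22 holds for the levels and calls of all of them. Without these 13, 42 of 55 were lower in testis and 7 were higher.

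Other genes of mitochondrial protein synthesis were counted from lists chosen by function. For these and the other lists below, 42.3% of all genes tested were lower in control testis and 44.1% higher. All 6 listed mitochondrial ribosomal proteins with other names were lower in control testis (median log2 -1.28). The largest difference was that of ict1, a peptidyl-tRNA hydrolase built into the large subunit, at 3.49 FPKM in testis and 36.4 in ovary (log2 -3.56, SE 0.13, adjusted p = 7.75e-09), and dap3, a GTP-binding protein of the small subunit, had 39.8 and 118 (log2 -1.75, SE 0.07). Assembly factors and ribosomal RNA modifying enzymes had 21 of 23 lower and 1 higher (median -1.72). Among them dhx30, an RNA helicase of the mitochondrial RNA granule, had 5.28 FPKM in testis and 59.2 in ovary (log2 -3.67, adjusted p = 7.23e-10), and ddx28, another helicase of these granules, 7.86 and 74.6 (log2 -3.42). The exception was mettl15, a methyltransferase of the small subunit ribosomal RNA, at 40.4 FPKM in testis and 3.01 in ovary (log2 3.57, adjusted p = 9.76e-09).

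Of 13 mitochondrial translation factors 9 were lower in control testis and 2 higher (median log2 -1.13). The elongation factor gene tsfm had 9 FPKM in testis and 127 in ovary (log2 -4.0, SE 0.09), whereas guf1, a ribosome-binding GTPase, and letm1, an inner membrane ion transporter whose yeast relative binds these ribosomes, were higher in testis (log2 2.04 and 2.28). Of 18 genes for mitochondrial aminoacyl-tRNA synthetases and the amidotransferase 13 were lower and 4 higher (median -1.17), with mars2 the highest (log2 1.82). Of 12 genes of mitochondrial DNA upkeep and transcription 9 were lower and 2 higher (median -0.88), and of 17 import and protease genes 13 were lower and 2 higher (median -0.58). In that list afg3l2, a subunit of the m-AAA protease, was higher in testis, at 118 against 24.6 FPKM (log2 2.08, SE 0.09, adjusted p = 3.27e-08), and spg7, its partner, was lower (log2 -0.43, adjusted p = 0.0049).

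Other large gene groups did not share this direction. Cytosolic ribosomal protein genes were taken by the start of the symbol alone (rpl or rps, with or without p, then a digit). That rule may take in genes of other kinds whose symbols start alike. Of the 86 genes so taken, named copies included, 73 were higher in control testis and 9 lower (median log2 1.05), the reverse of their mitochondrial counterparts. Nuclear genes with names of the respiratory chain and the ATP synthase, also taken by the start of the symbol, had 47 higher and 19 lower of 85 (median 0.40). In the suppressed-labelled libraries the corresponding counts were 75 higher and 5 lower of 84 cytosolic ribosomal protein genes (median 1.24), and 47 higher and 15 lower of 85 respiration genes (median 0.63). Of all genes 41.3% were higher and 39.9% lower there.

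**Figure D3:**
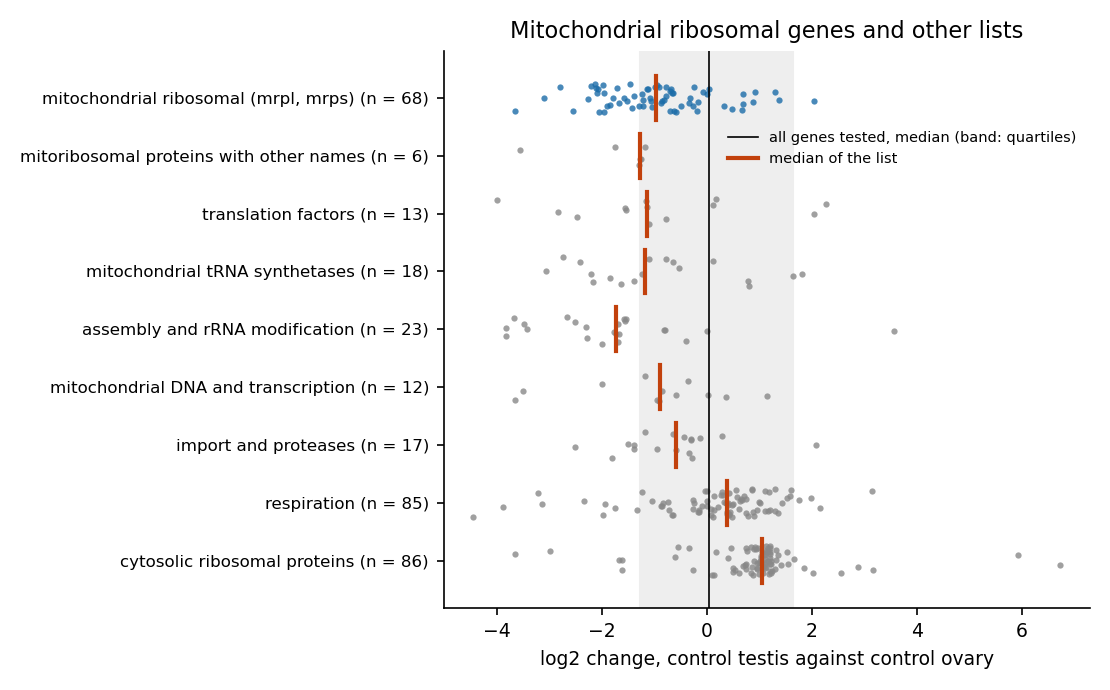
Log2 difference between control testis and control ovary for each gene of the mitochondrial ribosomal protein group and of 8 other lists. Each dot is a gene, the orange bar the median of its list, and the black line and band the median and quartiles of all genes tested. The mitochondrial ribosomal protein, translation, assembly and synthetase lists have medians below 0 and the cytosolic ribosomal protein and respiration lists above 0.

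By label, 22 of the 68 genes changed in ovary. Of these 19 rose in the suppressed-labelled ovary and 3 fell, and 46 of the 68 did not pass, where 18.1% of 12557 genes tested were higher and 17.9% lower. The median log2 change was 0.11 against 0.00 for all genes, and 52 of 68 changes were above 0, where 49.3% of all changes were. With scaling by total count 14 rose and 5 fell, where 13.5% of all genes were higher and 24% lower, and the medians were 0.04 and -0.08. The suppressed-labelled ovaries also differed from controls in marker levels: the summed FPKM of 4 germ line genes was 606 to 622 against 346 to 352, that of 3 stroma genes 732 to 736 against 384 to 441, and that of 6 ovary genes 1790 to 1810 against 1430 to 1600. Within the germ line list ddx4 had a mean of 369 against 151 FPKM in controls, piwil1 130 against 105 and dnd1 88.8 against 65.3. In that list dazl was at 27.5 against 28.4, so ddx4 gave most of the rise of the sum. All 3 stroma genes had higher means, with tagln at 633 against 379 FPKM. Within the ovary list zar1 was at 1250 against 955 FPKM in controls and cyp19a1a at 57.8 against 87.3. The sum of 3 muscle genes was 16.2 to 31.8 against 2.34 to 2.96, with mylpfa at 0.0001 FPKM in control ovary, and that of 2 liver genes 0.248 to 0.297 against 3.6 to 5.7. Single genes carried these sums, since acta1a had a mean of 21.3 against 1.12 FPKM in controls and tfa 0.216 against 4.69. The muscle gene ckma was at 0.941 against 1.51 and mylpfa at 0.0247 against 0.0001. The liver gene fgb was at 0.0619 against 0.0647. The part of these differences in the changes below was not tested.

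The largest rise was that of mrps23 (ENSONIG00000006417; scaffold GL831615.1, bases 83556 to 92229, minus strand), a small subunit protein without a bacterial counterpart. Its levels were 29.2, 23.5 and 22.9 FPKM in control ovary and 87.1, 79.0 and 83.0 in suppressed-labelled ovary. The groups were well apart (3.46-fold higher; log2 1.79, SE 0.11, adjusted p = 1.69e-06 by edgeR). In testis the same gene stood at 17.3, 17.7 and 20.2 FPKM in control and at 20.6, 20.2 and 16.3 in suppressed-labelled libraries, which overlapped (log2 0.16, SE 0.17, adjusted p = 0.557). The largest fall was that of mrpl32, from 239, 243 and 221 FPKM to 91.0, 80.8 and 89.2 (2.56-fold lower; log2 -1.36, SE 0.07, adjusted p = 4.25e-07). Its testis levels also overlapped, at 22.3, 18.4 and 22.6 against 19.9, 20.4 and 24.5 FPKM (log2 0.16, adjusted p = 0.551). Both ovary calls held in all 14 alternative fits, those without 1 library included (adjusted p up to 2.51e-05 for mrps23 and 1.41e-05 for mrpl32).

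Further rises of over 0.5 on the log2 scale in ovary were those of 3 genes. The low-level mrpl20 went from 1.05, 1.00 and 1.42 FPKM to 3.66, 2.33 and 3.19 (log2 1.44, SE 0.34, adjusted p = 0.00897). For mrpl36 the values were 35.7, 42.9 and 37.8 FPKM in control and 69.0, 63.1 and 68.2 in suppressed-labelled ovary (log2 0.85, SE 0.11, adjusted p = 0.000197). The small subunit gene mrps5, of the bacterial S5 family, went from 20.3, 16.8 and 17.2 FPKM to 31.8, 31.0 and 27.6 (log2 0.81, SE 0.10, adjusted p = 0.000154). In each of these genes every suppressed-labelled ovary was above every control ovary.

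The other 15 rises were smaller, with log2 changes from 0.18 to 0.47. They included mrps6 (0.47, adjusted p = 0.00493), mrps22 (0.45, adjusted p = 0.00267), mrpl37 (0.43, adjusted p = 0.000402), mrpl48 (0.35, adjusted p = 0.0104) and mrpl45 (0.30, adjusted p = 0.00514). In humans variants of MRPS22 have been tied to failure of ovary development. Its tilapia gene stood at 59.0, 57.8 and 53.9 FPKM in control ovary and at 76.7, 65.5 and 80.0 in suppressed-labelled ovary, with no overlap. The remaining rises were those of mrpl4, mrpl21, mrpl3, mrps21, mrps35, mrpl1, mrpl16, mrps9, mrpl14 and mrps2, each at or under 0.29. The calls of mrpl21, mrps2, mrps9, mrpl14 and mrps21 were lost in 11, 10, 10, 9 and 7 of 14 alternatives (adjusted p up to 0.309, 0.142, 0.145, 0.298 and 0.134). Besides mrpl32, mrps25 fell from 173, 176 and 170 FPKM to 120, 99.9 and 120 (log2 -0.54, SE 0.08, adjusted p = 0.000623). The overlapped mrpl54 fell from 119, 119 and 125 to 94.8, 85.1 and 100 (log2 -0.30, SE 0.08, adjusted p = 0.0133).

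Groups without overlap in FPKM were also counted, without scaling beyond the authors' own. In ovary 15 of the 68 were higher in every suppressed-labelled library than in any control, where 18.5% of all genes were, and 8 were lower in every one, where 31.5% were. By the edgeR calls given above (18.1% of all genes higher and 17.9% lower), 11 of 41 large subunit names rose and 2 fell, and 8 of 27 small subunit names rose and 1 fell. In edgeR fits without 1 library between 14 and 27 genes rose and 3 fell in each, where 12.5 to 16.8% of all genes rose and 13.1 to 16.4% fell.

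**Figure D4:**
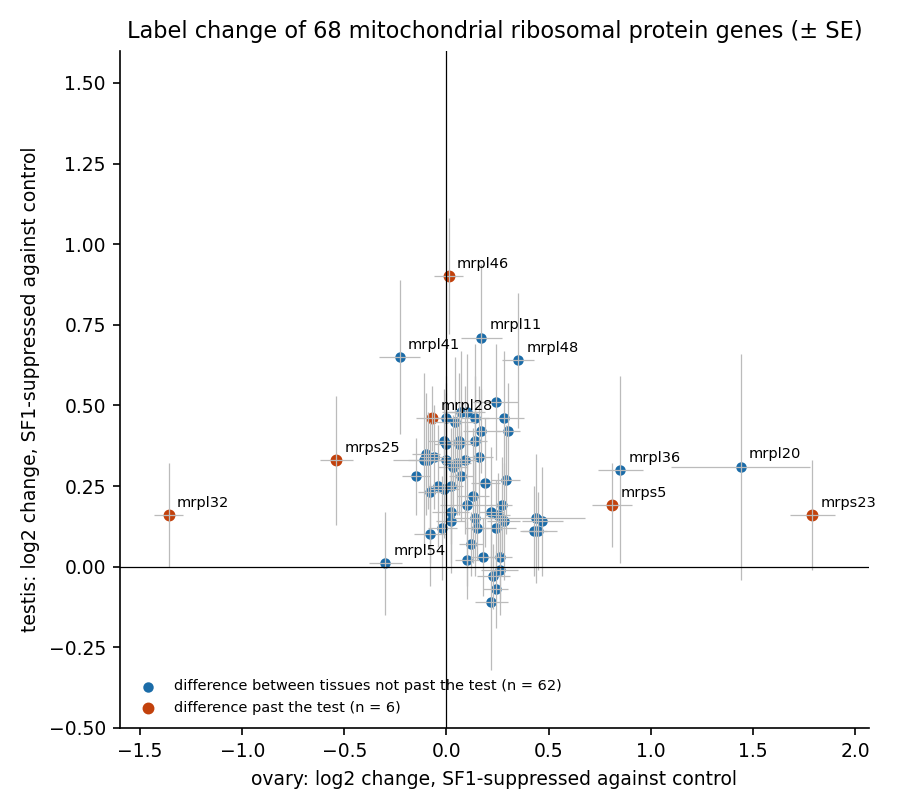
Log2 change with the label (suppressed minus control) of each of the 68 genes in ovary (horizontal) and testis (vertical), with bars for the standard error. Orange points are the 6 genes whose change differed between the tissues by the interaction test. Along the ovary axis mrps23 (1.79) and mrpl32 (-1.36) stand at the ends, and along the testis axis most points lie a little above 0, with mrpl46 (0.90) the highest.

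In testis few of the genes passed by label, although most changes pointed one way. Of the 68, 2 rose in the suppressed-labelled testis and 0 fell by edgeR's quasi-likelihood test, where 5.25% of 14368 genes tested were higher and 5.68% lower. At an unadjusted p under 0.05, 14 were higher and 0 lower, where 14.6% of all genes were higher and 14.7% lower. DESeq2 called 7 higher and 0 lower, where it called 9.92% of all genes higher and 10.2% lower, and limma called 1 higher and 0 lower, where it called 4.08% and 8.78%. Changes were above 0 for 64 of the 68, where 50.1% of all changes were, and the medians were 0.27 and 0.00. With scaling by total count both medians moved down together, to 0.14 and -0.12, and 54 of the 68 were above 0. By FPKM 14 genes were higher in every suppressed-labelled library than in any control, where 12.5% of all genes were, and 3 were lower in every one, where 26.4% were.

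This lean was largest in suppressed replicate 3, whose sums of stroma and spermatid markers differed from those of suppressed replicates 1 and 2. Here each library was compared with the control mean on log2(FPKM + 1), without TMM scaling. The median gene lay 0.35 log2 units above that mean in replicate 3, against -0.02 and 0.08 in replicates 1 and 2. In replicate 3, 55 of the 68 were above the control mean, against 32 and 46. The control libraries themselves had 53, 26 and 17 above it, with medians of 0.09, -0.01 and -0.08. The count in suppressed replicate 3 was near that of control replicate 1, although its median was higher. Each control library is part of the control mean and the suppressed libraries are not, so these values are not strictly alike. The share of all genes above the control mean is not given here. By limma on log2(FPKM + 1) the median label change was 0.12 for the 68 genes and -0.11 for all genes. In the edgeR fit without suppressed replicate 3 the median log2 change was 0.09, with 51 of the 68 above 0. There 4 of the 68 passed as higher and 0 as lower, where 9.19% of all genes were higher and 10.5% lower. Without testis control replicate 3 the median was 0.18, and without any other single library it was 0.25 to 0.36. Other markers differed between all 3 suppressed-labelled testes and all 3 controls. The sum of 4 germ line genes was 2080 to 2280 FPKM against 1590 to 1730, that of 3 muscle genes 19.7 to 143 against 6.45 to 10.9, and the erythrocyte gene alas2 was at 1.99 to 2.94 against 4.74 to 10.6. Members of these lists did not all move with the sums. The germ line gene dnd1 had a mean of 23.6 against 43.8 FPKM in controls, and the muscle gene ckma 0.661 against 0.954. The other genes of both lists had higher means, with ddx4 at 882 against 499 FPKM and acta1a at 76.9 against 6.38. In the spermatid list dnah1 was at 23.5 ± 1.39 FPKM against 8.29 ± 0.454 in controls (SD, n = 3). There tekt1 was at 143 against 132, spag6 at 93.4 against 107 and ropn1l at 98.2 against 105. The stroma gene dcn and the testis gene sox9a also had higher means, as given above. The part of these marker levels, and of those of replicate 3, in the label changes was not tested.

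The 2 that passed were mrpl46 and mrpl28, both of the large subunit. For mrpl46 (ENSONIG00000003015; scaffold GL831133.1, bases 6610262 to 6618519, minus strand), which has no bacterial counterpart, the levels were 7.58, 7.58 and 7.77 FPKM in control testis and 10.9, 12.4 and 16.1 in suppressed-labelled testis. Every suppressed-labelled library was higher than every control (log2 0.90, SE 0.18, adjusted p = 0.0212). Its head-to-head neighbour mrps11 did not move with it, at 11.3, 10.7 and 9.17 FPKM against 9.38, 9.90 and 11.8 (log2 0.12, SE 0.16, adjusted p = 0.654). For mrpl28, related to bacterial L28, the values were 13.1, 13.5 and 14.4 FPKM in control and 18.3, 17 and 16.9 in suppressed-labelled testis, again without overlap (log2 0.46, SE 0.10, adjusted p = 0.0247). The mrpl46 call was lost without any 1 of the 3 control libraries, without the suppressed library numbered 2 and with the replicate block, with adjusted p up to 0.118, and the mrpl28 call was lost in 9 of 14 alternatives (adjusted p up to 0.158). Outside these, mrpl11 (log2 0.71, adjusted p = 0.0908), mrpl41 (0.65, adjusted p = 0.122) and mrpl48 (0.64, adjusted p = 0.086) had the largest changes, and none of the 3 was past the test.

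Whether the label change differed between the tissues was tested with an interaction term over all 12 libraries, as testis change minus ovary change. It was past the test for 6 of the 68 genes, with 4 positive and 2 negative, where 7.33% of 15382 genes tested were positive and 8.15% negative. The share among the 68 was thus not above that of all genes. The values were -1.66 for mrps23 (SE 0.18, adjusted p = 9.91e-05) and 1.48 for mrpl32 (SE 0.18, adjusted p = 0.000169), the genes that moved most in ovary. They were 0.86 for mrpl46 (adjusted p = 0.0152), 0.83 for mrps25 (adjusted p = 0.0304), 0.50 for mrpl28 (adjusted p = 0.0159) and -0.65 for mrps5 (adjusted p = 0.0212). The calls of mrps23 and mrpl32 held in all 19 alternatives, whereas that of mrps25 was lost in 7 and that of mrps5 in 8 (adjusted p up to 0.119 and 0.0714).

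**Figure D5:**
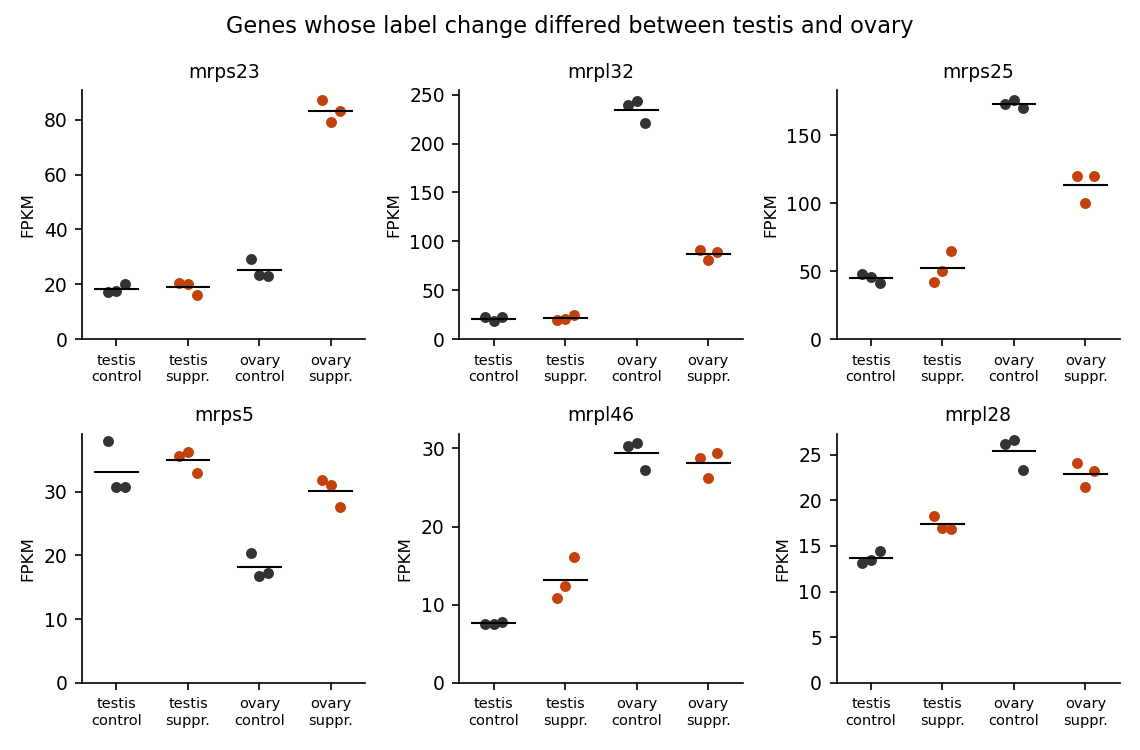
FPKM of the 6 genes whose label change differed between testis and ovary, with 1 point per library and a bar for the mean of each group. The suppressed-labelled ovary is above the control ovary for mrps23 and mrps5 and below it for mrpl32 and mrps25, and the suppressed-labelled testis is above the control testis for mrpl46 and mrpl28.

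Among the other genes of mitochondrial protein synthesis, calls by label were counted in the same way. Of all genes tested 5.25% rose and 5.68% fell in testis, and 18.1% rose and 17.9% fell in ovary. Of the 6 ribosomal proteins with other names 1 rose in testis and 2 in ovary, and 0 fell in either. The gene called in both was ptcd3, a small subunit protein with RNA-binding repeats, which went from 12.8 to 20.3 FPKM in testis (log2 0.79, adjusted p = 0.0148) and from 25.6 to 47.9 in ovary (0.98, adjusted p = 4.61e-06), and chchd1 rose in ovary (0.67, adjusted p = 9.79e-05). Of 23 assembly and modification genes 1 rose in testis, eral1, a GTPase that binds the small subunit ribosomal RNA (log2 0.74, adjusted p = 0.0186). In ovary 5 of them rose and 2 fell, among them mrm1, a ribosomal RNA methyltransferase, which fell from 37.5 to 7.64 FPKM (log2 -2.22, SE 0.12, adjusted p = 6.42e-07). Of 13 translation factors 0 passed in testis by edgeR, while 2 rose and 2 fell in ovary. Of 18 synthetase genes 1 rose in testis, and 5 rose and 2 fell in ovary, with lars2 up in testis (0.54) and in ovary (0.47), ears2 up in ovary (0.73) and wars2 down in ovary (-0.71).

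Larger gene groups were counted by label as well. Of all genes tested 5.25% were higher and 5.68% lower in testis, and 18.1% and 17.9% in ovary. Cytosolic ribosomal protein genes had 5 higher (5.88%) and 1 lower of 85 in testis (median log2 0.28). In ovary they had 10 higher (12.3%) and 2 lower of 81 (median 0.08). Respiration genes had 10 higher (11.8%) and 1 lower of 85 in testis (median 0.43), and 32 higher (37.6%) and 4 lower of 85 in ovary (median 0.13). In testis the medians of both groups were above 0, as was that of the mitochondrial ribosomal protein genes (0.27).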

How the data were processed

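Total RNA of 12 gonad samples was sequenced. The deposited table, made by the authors, held expected counts (whole-number read estimates for each gene) and FPKM for 22283 genes, in 24 value columns that were all assigned to a library by name; 0 were left unmatched. Per the submitters' processing notes, HISAT and StringTie were used (no version given). Genome build, annotation release, strand setting and quantification options were not given in the sources used here. Scaffold names are those of the table.

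The 68 genes and the lists were chosen with earlier results of these data known, so no count over them is independent support. Counts were tested with edgeR 4.0.16 (quasi-likelihood F test, TMM scaling) in R 4.3.3 for genes that reached an FPKM of 1 in 3 or more of the libraries compared. P-values were adjusted by Benjamini-Hochberg over all genes tested, with 0.05 as the threshold. Levels between genes and between groups are given as FPKM, and log2 values are fitted changes on the count scale unless log2(FPKM + 1) is named. Standard errors were derived from the F statistic. The method was also run on simulated counts, with the same spread set for all genes and with changes larger than most label changes given here. That run therefore does not bear on changes as small as those. Summed FPKM were compared by exact two-sided permutation. DESeq2 1.42.0, limma 3.58.1 on log2(FPKM + 1) and log2(FPKM + 0.1), other scalings, no filter, a replicate block, a fit on all 12 libraries and fits without each library were alternatives. In fits without a library the filter and the TMM scaling were set anew on the libraries left. Replicate numbers are not said to pair fish. Libraries held 36.8 M to 60.5 M counts, and counting error weighs most on mrpl20 (as few as 25 counts). Group differences were not set against counting error apart from the tests given.

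Named genes were every gene of the 68 past the test by label or interaction, up to 12 each way by adjusted p, the 8 largest differences each way between tissues among those past the test, the 4 highest and 4 lowest levels, and mrpl10, mrpl11, mrpl44, mrpl45, mrps30, mrps36 and ict1 whatever their values; others were named after their values were seen. Alternatives were computed for all 68. Symbols were matched to RefSeq (UMD_NMBU) for 66 of 68; mrpl36 and mrps36 had no match. RefSeq lists 75 symbols of this kind, of which 9 (mrpl12, mrpl13, mrpl33, mrpl39, mrpl43, mrpl55, mrpl58, mrps12 and mrps33) were not analysed here under those names.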

Additional observations from a re-analysis of the deposited data

Results flagged for a closer look

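The label change differed between testis and ovary, by the interaction test of edgeR, for 6 of the 68 genes, given as testis change minus ovary change on the log2 scale. Of these, 4 were positive and 2 negative, where 7.33% of 15382 genes tested were positive and 8.15% negative. That share was not above that of all genes. For mrps23 the value was -1.66, with mean levels of 25.2 FPKM in control and 83.0 in suppressed-labelled ovary against 18.4 and 19 in testis (3 libraries each). For mrpl32 it was 1.48, with 234 and 87.0 FPKM in ovary against 21.1 and 21.6 in testis. For mrpl46 it was 0.86, with 29.4 and 28.1 FPKM in ovary against 7.64 and 13.1 in testis. For mrps25 it was 0.83, with 173 and 113 FPKM in ovary against 45.3 and 52.3 in testis. For mrpl28 it was 0.50, with 25.4 and 23 FPKM in ovary against 13.7 and 17.4 in testis. For mrps5 it was -0.65, with 18.1 and 30.1 FPKM in ovary against 33.2 and 35 in testis. With 3 libraries per group, no single library was tested for standing apart.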

How the results depend on the processing

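Of the alternative values for the 68 genes, 4841 stayed on the same side of the threshold, 154 fell below it, 100 rose past it and 5, past the test in either fit, changed sign. Of the 4841, 183 not past the test in either fit also changed sign. The 5 were in control testis against ovary, where mrpl16 had log2 0.05 and mrpl30 0.37 without testis control replicate 2, and mrpl16 had 0.13, mrpl41 0.43 and mrps18a 0.03 without replicate 3. Without 1 library the values ran from -0.37 to 0.13 for mrpl16, from -0.20 to 0.37 for mrpl30, from -0.15 to 0.43 for mrpl41 and from -0.45 to 0.03 for mrps18a. All fits without 1 library also changed the genes tested and the scaling, so their shifts are not those of the missing library alone. The median interaction (0.16) ran from -0.01, without suppressed testis replicate 3, to 0.31. In testis the count of genes that rose by label (2) was 1 with total-count scaling, 7 with DESeq2, 1 with limma at either pseudocount, 12 in a fit on all 12 libraries and 0 to 4 in fits without 1 library. Of all genes 5.25% rose in the main fit, 3.86% with total-count scaling, 9.92% with DESeq2 and 4.08% or 3.79% with limma. The share was 10.9% in the fit on all 12 libraries and 1.27 to 9.19% without 1 library. In ovary the count that fell (3) was 5 with total-count scaling and 5 with limma at either pseudocount, and the count that rose (19) was 10 in the fit on all 12 libraries. Of all genes 17.9% fell in the main fit, 24% with total-count scaling and 23.7% or 23.4% with limma. The share that rose was 18.1% in the main fit and 10.7% in the fit on all 12 libraries. Between suppressed-labelled tissues the count higher in testis (8) was 5 to 13 without 1 library, where 37.9 to 42.5% of all genes were higher. The negative interaction count (2) was 4 with limma at either pseudocount, 1 without the FPKM filter and 1 to 3 without 1 library, and the positive count (4) was 3 to 8 without 1 library. Of all genes 10.9% or 9.03% were negative with limma, 4.99% without the filter and 5.68 to 9.4% without 1 library. The positive share was 5.37 to 10.5% without 1 library.

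With the replicate number as a block, 0 genes rose in testis, 14 rose and 3 fell in ovary, and the interaction had 1 positive and 1 negative gene. Of all genes 1.06% then rose in testis, and 13.8% rose and 13.7% fell in ovary. The interaction was positive for 3.62% of all genes and negative for 4.04%. Deviations of same-numbered libraries correlated from -0.287 to 0.112, so the numbers were not taken to pair samples. Leaving out the 13 genes that overlap another gene, chosen after seeing the data, gave 2 higher and 0 lower of 55 in testis and 16 and 2 in ovary. Of all genes in the main fits 5.25% were higher and 5.68% lower in testis, and 18.1% and 17.9% in ovary. Depth limits mrpl20 most. The cause of these shifts was not tested.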
